A study of Mus musculus with 66 samples.

Results

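The microRNA miR-802 was followed in mouse plasma through both mature products of its hairpin, mmu-miR-802-5p and mmu-miR-802-3p. These are 2 of the 1826 circulating miRNAs listed for C3H mice and 2 of the 1885 listed for F2 mice. Both arms were chosen by name, as a liver miRNA of glucose metabolism, and were selected on earlier results from the same comparison of C3H mice with and without tumours. The values of that comparison are therefore a description, and no p-value is given for either arm. C3H is an inbred strain in which liver tumours also arise without irradiation. The 13 C3H mice were male, 8 with hepatocellular carcinoma (HCC) and 5 without (non-HCC), and the labels place each of them more than 12 months after radiation. By the study's methods some of the C3H tumours were spontaneous and some radiation-induced, and the labels do not say which, so the HCC mice are 1 group here. Blood of C3H mice was drawn from the heart at necropsy. F2 mice are the second-generation progeny of BALB/c females and C3H males. All 15 of them, 7 females and 8 males, were irradiated and were diagnosed with HCC. Their 53 plasma samples were drawn from the tail vein at 1, 6, 12 or 18 months after irradiation, and the names of the deposited F2 columns match no mouse and no time point.

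A miRNA is cut from a hairpin precursor, and either strand of the resulting duplex, the 5p or the 3p arm, can be loaded into an Argonaute protein. The loaded arm then recognises messenger RNAs mainly through its seed, bases 2 to 8. MiR-802 is known from liver, pancreas, kidney and intestine, and is best known for its part in obesity, in which hepatic miR-802 impairs glucose tolerance. MiRNAs that hepatocytes make in large amounts, above all miR-122, are known to enter the blood when liver cells are damaged.

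Mir802 (gene ENSMUSG00000076457) lies on chromosome 16 of GRCm38 from 93369720 to 93369816 on the plus strand. No other gene of GENCODE M21 overlaps its 97 bases. The long intergenic noncoding RNA 1810044K17Rik ends 690 bases upstream on the same strand, and the nearest protein-coding genes are Setd4, 213640 bases downstream, and Runx1, 543570 bases upstream. Both mature arms are 22 bases long and are separated by 16 bases of the hairpin. They are shown because each count below is a count of molecules that carry one of these sequences (RefSeq, GRCm38.p6, 5′ to 3′, seed in capitals; in the hairpin the capitals mark the 5p and then the 3p arm).
mmu-miR-802-5p: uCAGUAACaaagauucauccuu
mmu-miR-802-3p: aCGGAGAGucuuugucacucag
Mir802 hairpin: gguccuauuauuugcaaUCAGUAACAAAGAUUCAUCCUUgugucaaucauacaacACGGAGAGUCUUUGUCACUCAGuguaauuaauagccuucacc
Of 1679 mature mouse miRNA names in the RefSeq table, 0 others carry the seed of the 5p arm and 0 others that of the 3p arm. MiR-802 is thus described as a hairpin and not as a seed family.

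Each value is a count of unique molecular indices (UMIs), barcodes attached before amplification so that each captured molecule adds 1. Between 9513136 and 14247488 miRNA UMIs were counted per C3H mouse. The lowest value above 0 in either table is 10, and an entry of 0 is read as fewer than 10 UMIs. Levels on the spike-in scale are log2 of the count plus 1 UMI, after division by a spike-in factor. The factor of a mouse is its mean count of the synthetic UniSP2 and UniSP4, taken relative to the geometric mean of all 13 mice. UniSP2 counts spanned 165794 to 938898 UMIs with HCC and 364466 to 731761 UMIs without. A share of the library, in UMIs per 1000000 miRNA UMIs (CPM), is given beside each level, because it does not use the spike-ins. In plasma, more cells that release a miRNA and more miRNA released per cell cannot be told apart.

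The 5p arm was higher in the HCC mice than in the non-HCC mice, with 6 of the 8 far above them and HCC mice 3 and 7 closer. As UMIs, mmu-miR-802-5p counted 3052, 3259, 556, 4711, 3362, 2904, 582 and 2854 in HCC mice 1 to 8. In non-HCC mice 1 to 5 it counted 237, 343, 230, 253 and 282. Every HCC mouse thus had more UMIs of the 5p arm than every non-HCC mouse, and HCC mice 3 and 7 lay nearest to the non-HCC mice. The number of all miRNAs that separate the groups as UMIs was not counted. Since the arms were selected on this comparison, the separation is not read as a trait of miR-802.

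On the spike-in scale the log2 level of mmu-miR-802-5p averaged 11.24 ± 2.02 (SD, n = 8) with HCC, against 7.76 ± 0.49 (SD, n = 5) without. For HCC mice 1 to 8 the values were 11.37, 13.12, 8.25, 12.54, 13.24, 12.25, 8.21 and 10.96. Non-HCC mice 1 to 5 had log2 levels of 7.28, 7.89, 7.44, 7.67 and 8.54. In order of level, HCC mice 5, 2, 4, 6, 1 and 8 came first, then non-HCC mouse 5, then HCC mice 3 and 7, then the other 4 non-HCC mice. The gap between HCC mouse 8 and non-HCC mouse 5 was wider than the SD of the non-HCC mice, whereas non-HCC mouse 5 and HCC mice 3 and 7 differed from each other by less than that SD. HCC mice 3 and 7 had the highest UniSP2 counts of all 13 mice, 875017 and 938898 UMIs, and HCC mice 2 and 5, which had the highest levels, had the lowest, 175009 and 165794 UMIs.

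As a share of the library the groups did not overlap. Mmu-miR-802-5p made up 299, 229, 53.2, 375, 241, 298, 49.2 and 300.0 CPM in HCC mice 1 to 8. In the non-HCC mice it made up 21.7, 24.7, 21.97, 18.7 and 20.2 CPM. The median share was 12.4-fold higher in HCC mice. Ranked by UMIs among all miRNAs of a mouse, the 5p arm stood between rank 103 and rank 193 in HCC mice and between rank 242 and rank 256 in non-HCC mice.

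**Figure D1:**
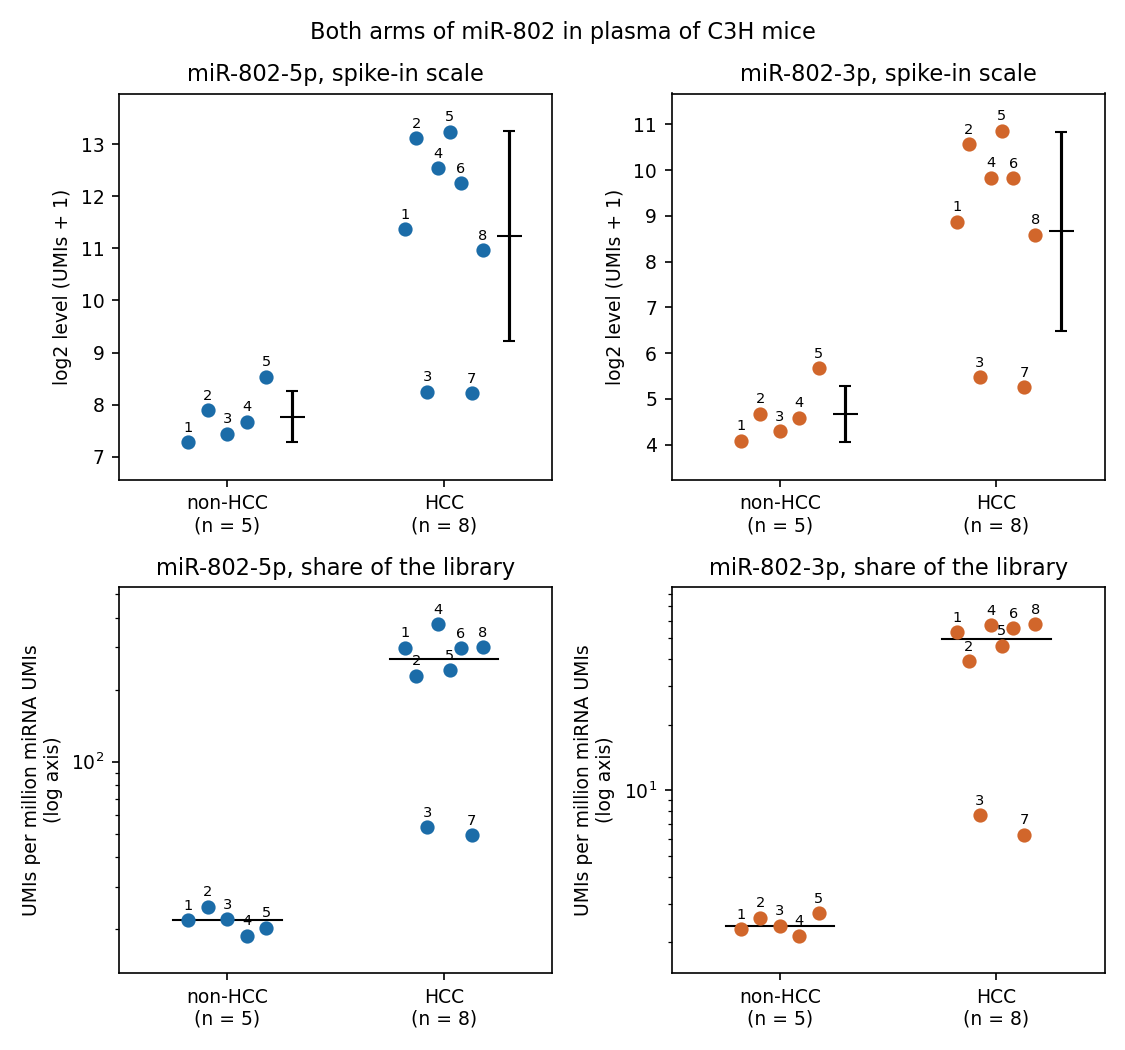
Both arms of miR-802 in each C3H mouse (points, numbered by mouse), as log2 level on the spike-in scale with the mean and SD beside the points (upper panels) and as CPM on a log axis with the median as a line (lower panels). On the spike-in scale HCC mice 3 and 7 lie among the non-HCC mice, and as a share of the library all 8 HCC mice lie above all 5 non-HCC mice.

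The 3p arm, the less abundant strand, was counted in the same mice at a lower level. Mmu-miR-802-3p counted 543, 557, 80, 722, 644, 542, 74 and 550 UMIs in HCC mice 1 to 8. In non-HCC mice 1 to 5 it counted 25, 36, 25, 29 and 38 UMIs, which is close to the lowest listed value of 10. Again each HCC mouse had more UMIs than each non-HCC mouse, from which nothing is read for the same reasons as for the 5p arm.

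The log2 level of mmu-miR-802-3p averaged 8.66 ± 2.17 (SD, n = 8) with HCC, against 4.66 ± 0.61 (SD, n = 5) without. HCC mice 3 and 7, at 5.47 and 5.26, lay below non-HCC mouse 5, at 5.68, so that the groups overlapped on the spike-in scale as they did for the 5p arm. The other 6 HCC mice ranged from 8.59 to 10.86. As a share of the library the 3p arm spanned 6.26 to 57.8 CPM with HCC and 2.14 to 2.72 CPM without. These shares did not overlap, and their median was 20.8-fold higher in HCC mice.

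The size of the difference was also read from the fit over all miRNAs, edgeR's quasi-likelihood test on the counts, in which the spike-ins set the scale of each library. The log2 fold change of HCC over non-HCC mice was 4.25 with a standard error of 0.87 for mmu-miR-802-5p and 4.85 with a standard error of 0.94 for mmu-miR-802-3p. Over all miRNAs tested, 109 of 1452, or 7.51%, were called higher at a Benjamini-Hochberg adjusted p of 0.05, and 0 were called lower by edgeR. Both arms are among the 109, from which nothing is read, since they were selected on this comparison. Without adjustment 283 miRNAs had a p under 0.05. With TMM factors, which assume that most miRNAs do not change, the calls were 107 higher and 32 lower. DESeq2 with its own size factors gave 166 higher and 49 lower. The median log2 fold change of all miRNAs tested was 0.78 on the spike-in scale and 0.17 with TMM factors, and with the latter the log2 fold changes of the 5p and 3p arms were 3.30 and 3.92. On either scale both arms lay above that median, from which again nothing is read, given their selection on this comparison.

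Whether the groups overlapped depended on the scale. On the spike-in scale 0 of the 2 arms had all tumour-bearing mice above all others, which held for 22 of all miRNAs tested, or 1.52%. In CPM it held for both arms and for 61 of all miRNAs tested, or 4.20%. With TMM factors it held for both arms as well, and for 54 of all miRNAs tested.

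The balance of the arms needs no library scale, since both are counted in the same library. In non-HCC mice 1 to 5 the 3p arm made up 9.54%, 9.50%, 9.80%, 10.3% and 11.9% of the UMIs of both arms. In HCC mice 1 to 8 it made up 15.1%, 14.6%, 12.6%, 13.3%, 16.1%, 15.7%, 11.3% and 16.2%. The 3p share averaged 14.4% ± 1.79 (SD, n = 8) with HCC, against 10.2% ± 0.987 (SD, n = 5) without, and 7 of the 8 HCC mice exceeded every non-HCC mouse. HCC mouse 7, at 11.3%, lay below non-HCC mouse 5. Whether other hairpins come as near to separating the groups was not counted.

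Few 3p molecules stood behind the non-HCC values. For non-HCC mouse 1 the exact 95% binomial interval of the 3p share ran from 6.27% to 13.8%, and for HCC mouse 7 it ran from 8.96% to 14.0%. HCC mouse 5, with more molecules, had an interval from 15.0% to 17.3%. These intervals cover counting error only. The share describes counted molecules and not the loading of Argonaute.

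In terms of the log2 ratio of the 5p to the 3p arm, the mean of the HCC mice was below that of the non-HCC mice, with a difference of -0.52. A shift of this size was common. Of 161 hairpins with both arms above 0 in all 13 mice, miR-802 included, 87 had a larger difference between the groups in either direction, and the median absolute difference was 0.56.

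**Figure D2:**
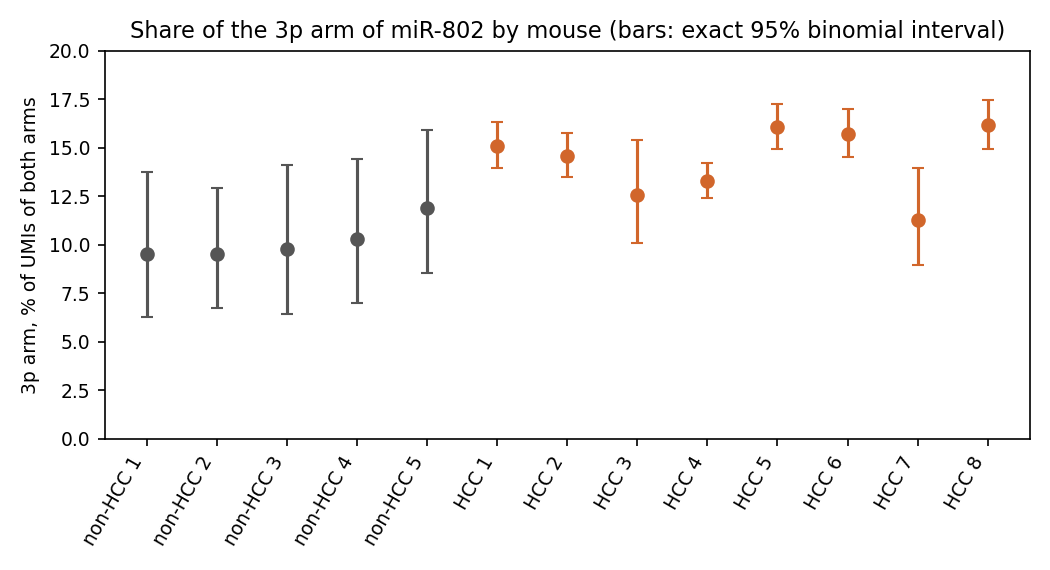
Share of the 3p arm in the UMIs of both arms of miR-802 in each C3H mouse, in percent, with exact 95% binomial intervals as bars (grey, non-HCC; orange, HCC). Non-HCC mice lie between 9.50% and 11.9% and HCC mice between 11.3% and 16.2%, with the widest intervals in the mice with the fewest 3p molecules.

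The same mice were then examined for other miRNAs of the liver. The list holds miR-122, the most abundant hepatocyte miRNA, both arms of miR-192 and of miR-148a, the 5p arm of miR-194, and miR-193a, miR-365, miR-101, miR-22 and miR-378a. Of its 14 miRNAs 10 were called higher in HCC mice and 0 lower, beside 7.51% called higher over all miRNAs tested. The median log2 fold change of the list was 3.44 against 0.78 over all miRNAs tested. With TMM factors the counts were again 10 and 0, beside 107 higher and 32 lower of 1452 over all miRNAs tested. Limma on log2 values called 3 of the list, beside 44 of 1452 over all miRNAs tested. The list was chosen with earlier results of these data known, so its counts and adjusted p-values are a description. MiR-802 stood in the upper part of this list: the fold changes of mmu-miR-122-5p, at 7.34 ± 1.17 (standard error; adjusted p = 0.00303 by edgeR), and of mmu-miR-122-3p, at 6.72 ± 1.24 (standard error; adjusted p = 0.00566 by edgeR), were larger than those of both miR-802 arms. That of mmu-miR-192-5p, at 4.51 ± 0.87 (standard error; adjusted p = 0.00566 by edgeR), lay between the 3p and the 5p arm. The remaining members had smaller values, and mmu-miR-101a-3p, mmu-miR-101b-3p, mmu-miR-22-3p and mmu-miR-378a-3p did not pass the threshold, with log2 fold changes from 0.81 to 2.21.

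**Figure D3:**
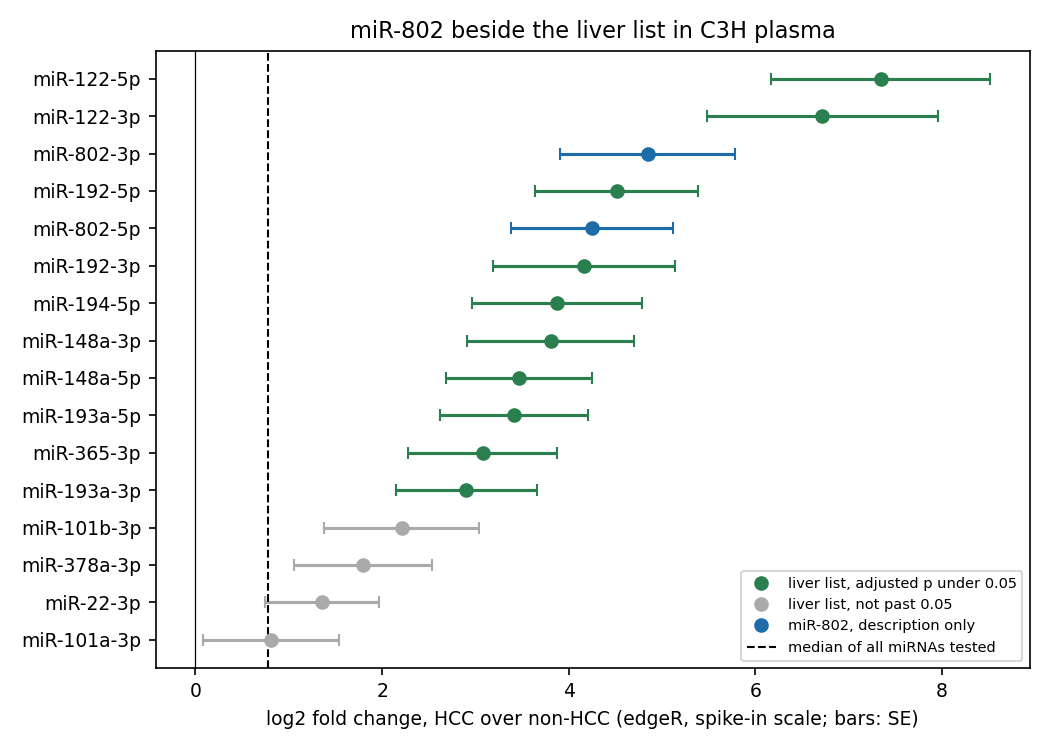
Log2 fold change of HCC over non-HCC C3H mice from edgeR on the spike-in scale, with standard errors as bars, for both arms of miR-802 (blue, description only) and the 14 miRNAs of the liver list (green, adjusted p under 0.05; grey, not past it). The dashed line marks the median of all miRNAs tested, 0.78, and both arms of miR-802 lie beside miR-192 and below miR-122.

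The ratio of miR-802 to miR-192-5p differed less between the groups than its ratio to miR-122-5p. Per 1000 UMIs of miR-192-5p there were 4.61 to 6.22 UMIs of mmu-miR-802-5p in non-HCC mice and 3.58 to 7.96 UMIs in HCC mice. The medians were 5.45 and 4.18 UMIs per 1000, and 6 of the 8 HCC mice lay below every non-HCC mouse. The groups overlapped through HCC mice 4 and 8. Whether other miRNAs lie as far apart against miR-192-5p was not counted. HCC mouse 8 had the highest ratio, and without it the HCC mice reached at most 5.47 UMIs per 1000.

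Per 1000 UMIs of miR-122-5p there were 5.19 to 10.4 UMIs of mmu-miR-802-5p in non-HCC mice. In HCC mice 1 to 8 there were 0.729, 0.782, 2.42, 3.93, 0.849, 0.699, 2.06 and 1.69 UMIs per 1000. Each HCC mouse lay below each non-HCC mouse. The denominator had the larger log2 fold change on the spike-in scale, 7.34 for HCC over non-HCC mice. How many other miRNAs separate the groups against miR-122-5p was not counted, so the separation is not read as a trait of miR-802. MiR-122-5p itself took 0.180% to 0.424% of all miRNA UMIs in non-HCC mice and 2.20% to 42.7% in HCC mice, and the shares of all miRNAs of a library have 1 sum.

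**Figure D4:**
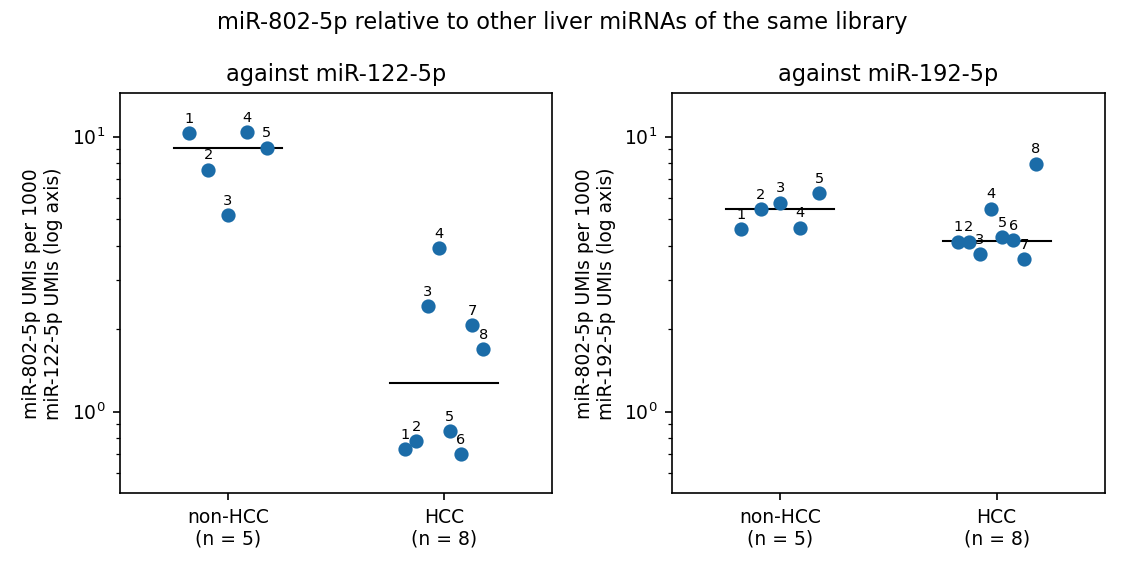
UMIs of mmu-miR-802-5p per 1000 UMIs of miR-122-5p (left) and of miR-192-5p (right) in each C3H mouse, on log axes, with mice numbered and the median of each group as a line. Against miR-122-5p all HCC mice lie below all non-HCC mice, and against miR-192-5p 6 of the 8 do, with HCC mouse 8 highest at 7.96.

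The miRNAs whose plasma level followed that of mmu-miR-802-5p most closely were ranked by Pearson correlation of log2 spike-in levels, among 697 miRNAs above 0 in all 13 C3H mice. These values are descriptive, since the groups differ and all miRNAs of a mouse share its library and its spike-in count, and the median r over the 697 was 0.677. The other arm, mmu-miR-802-3p, had r = 0.998 (Spearman's rho = 1). Mmu-miR-192-5p came next with r = 0.991 (rho = 0.967), followed by mmu-miR-148a-5p with r = 0.987, mmu-miR-122-3p with r = 0.986, mmu-miR-365-3p with r = 0.978 and mmu-miR-874-3p with r = 0.978. Without the 2 mice farthest from the median level of the 5p arm these r ranged from 0.969 to 0.986 for the 5 miRNAs. Of the 5, 4 are on the liver list, and mmu-miR-874-3p is not. Nothing is read from this, since the list was chosen with earlier results known and its share among the 697 was not counted.

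Among the 8 HCC mice alone the median r over the 697 was 0.844, so that a high value is common. The 5 nearest were mmu-miR-365-3p with r = 0.994, mmu-miR-181a-5p with r = 0.992, mmu-miR-193a-5p with r = 0.990, mmu-miR-214-3p with r = 0.988 and mmu-miR-224-5p with r = 0.988. Of these, mmu-miR-365-3p and mmu-miR-193a-5p are on the liver list and the others are not. Mmu-miR-192-5p, mmu-miR-148a-5p and mmu-miR-122-3p were no longer among the 5 nearest. On log2 CPM, which do not use the spike-ins, r was 0.987 for mmu-miR-365-3p and 0.687 for mmu-miR-181a-5p.

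A list of other miRNAs linked to insulin action and glucose holds the related miR-103-3p and miR-107-3p, miR-143-3p, miR-26a-5p, the 3 arms miR-29a-3p, miR-29b-3p and miR-29c-3p of the miR-29 family, miR-33-5p and miR-378a-3p. Of these 9 miRNAs 1 was called higher and 0 lower, a share near the 7.51% over all miRNAs tested, with a median log2 fold change of 1.66 against 0.78 over all miRNAs tested. The 1 miRNA was mmu-miR-29c-3p, with a log2 fold change of 3.08 ± 0.80 (standard error; adjusted p = 0.0202 by edgeR). With TMM factors mmu-miR-29c-3p was again called higher, at 2.14, and mmu-miR-107-3p was called lower, at -1.22. Over all 1452 miRNAs tested these factors gave 107 higher and 32 lower.

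Lists of miRNAs of other tissues and cells that could release miRNAs into plasma were examined in the same fit, in which 7.51% of all miRNAs were called higher. Of 5 miRNAs of the pancreas, which also makes miR-802, 0 were called (edgeR, either direction), with a median log2 fold change of 0.23. The islet miRNA mmu-miR-375-3p had 2437 to 6906 UMIs in HCC mice and 4411 to 7871 UMIs in non-HCC mice. The acinar miRNAs mmu-miR-216a-5p and mmu-miR-217-5p had 41 to 104 and 90 to 248 UMIs over all mice, and mmu-miR-216b-5p was listed at 0 in some mice of both groups and had at most 24 UMIs.

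Of the 6 red cell miRNAs, such as miR-451a, 0 were called, with a median log2 fold change of -0.54. Their summed log2 level spanned 19.38 to 22.95 with HCC and 21.40 to 22.71 without. As UMIs, without a library scale, mmu-miR-451a counted 41265 to 501965 with HCC and 687850 to 1126503 without. On the spike-in scale its log2 fold change was -0.64 (adjusted p = 0.737 by edgeR). The number of all miRNAs that lie apart in this way as UMIs was not counted. The UMI ranges of the other red cell miRNAs overlapped between the groups. On the spike-in scale 0 of all miRNAs tested had all HCC mice below all non-HCC mice, and in CPM 30 had. Of the 5 platelet and leukocyte miRNAs, such as miR-223-3p, 0 were called, with a median of -0.69 and a summed log2 level of 16.41 to 19.01 with HCC and 17.65 to 19.78 without. With TMM factors 4 of these 5 were called lower in HCC mice, beside 32 of 1452 over all miRNAs tested. Of the 5 muscle miRNAs, such as miR-1a-3p, 0 were called, with a median of 1.47 against 0.78 over all miRNAs tested, and mmu-miR-208b-3p had the highest log2 fold change of them, 2.52. No member of these 3 lists was listed at 0 in any C3H mouse, and their part in the values of miR-802 was not tested.

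In the F2 mice the 5p arm was counted in each of the 53 libraries, at a much lower depth. The libraries held between 205194 and 3020311 miRNA UMIs, with a median of 846338. Mmu-miR-802-5p had at least 16, in the median 67 and at most 527 UMIs. As a share it ranged from 26.5 to 430 CPM, with quartiles of 59.9 and 127 and a median of 79.5 CPM. The libraries come from 15 mice sampled repeatedly over months, so they are not replicates, and differences between mice and between time points cannot be told apart here.

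The upper end was set by few libraries. The 4 highest shares of mmu-miR-802-5p were 430, 313, 185 and 179.9 CPM, from 254, 527, 67 and 108 UMIs. In the highest library miR-192-5p and miR-122-5p both ranked 4 of 53, and in the next one they ranked 5 and 1. In the library of the third highest share they ranked 3 and 9, and in that of the fourth highest share 24 and 17.

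The SD of the log2 share of mmu-miR-802-5p over the 53 libraries was 0.76. That of miR-192-5p was 0.86 and that of miR-122-5p was 1.13, against a median of 0.73 over the 307 miRNAs above 0 in all libraries. The spread of miR-802 in F2 plasma was therefore close to that of a typical miRNA. C3H shares of 18.7 to 24.7 in non-HCC and 49.2 to 375 CPM in HCC mice stand beside these values without a comparison, since age, sex, strain, site of bleeding and depth differ between the tables.

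The 3p arm was near the limit of these libraries. Mmu-miR-802-3p was listed at 0 in 20 of 53 libraries, and its highest count was 44 UMIs. In the library of median depth the lowest listed count, 10 UMIs, equals 11.8 CPM, and it ranged from 3.31 to 48.7 CPM over all libraries. In the 33 libraries with both arms above 0 the 5p arm had 1.23 to 14.2 UMIs per UMI of the 3p arm, with a median of 5.70. Libraries whose 3p count fell below 10 are not in this ratio, and the 5p arm reached 108 UMIs in them. Arm balance was thus not measurable in the 20 F2 libraries with the 3p arm at 0.

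**Figure D5:**
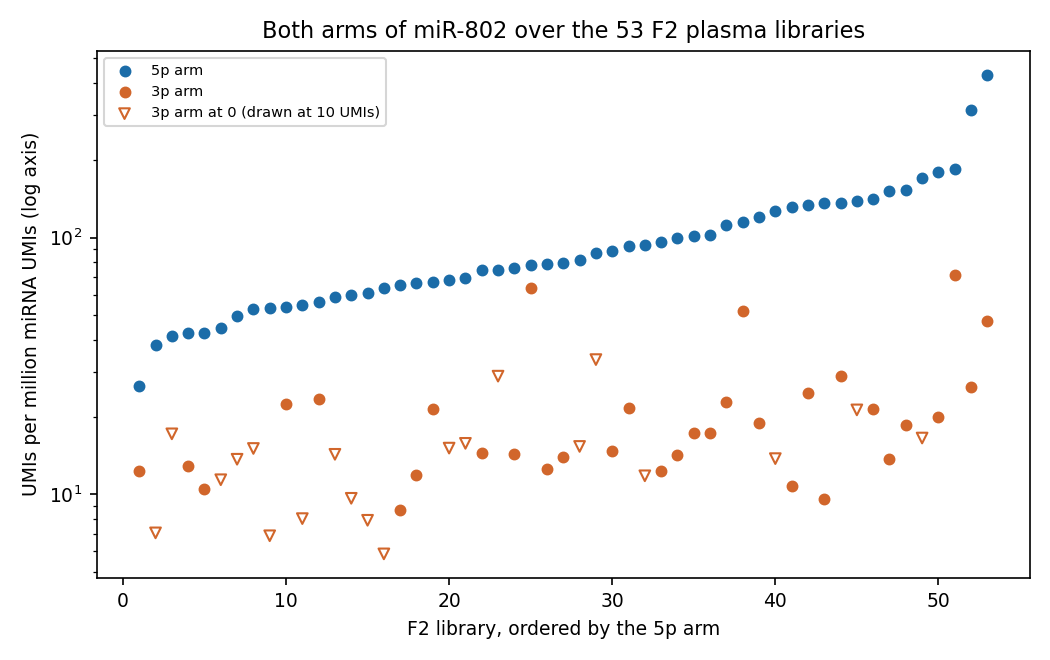
CPM of the 5p (blue) and 3p (orange) arm of miR-802 in the 53 F2 libraries, ordered by the 5p arm, on a log axis. Open triangles mark the 20 libraries with the 3p arm at 0, drawn at the share of 10 UMIs in that library, and the 5p arm rises from 26.5 to 430 with the 2 highest libraries set apart.

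Across the F2 libraries the share of mmu-miR-802-5p ran closest to that of miR-192. Among 306 other miRNAs above 0 in all 53 libraries the 5 highest Spearman correlations of shares were 0.784 for mmu-miR-192-5p, 0.698 for mmu-miR-29b-3p, 0.690 for mmu-miR-194-5p, 0.689 for mmu-miR-29c-3p and 0.634 for mmu-miR-192-3p. The median over the 306 was 0.309. Mmu-miR-122-5p, at 0.343, ranked 131. Without the 2 libraries farthest from the median share the correlation with mmu-miR-192-5p was 0.763, and on the spike-in scale of the F2 table it was 0.825 over all 53. On that scale the correlation with mmu-miR-122-5p was 0.650, and that with mmu-miR-148a-3p was 0.689, against 0.278 for shares. No median over all miRNAs was taken on the spike-in scale, so these values have no background there. The correlations are a description, since libraries of 1 mouse are not independent and all shares of a library have 1 sum.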

How the data were processed

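Small RNA was sequenced from plasma of 13 C3H samples and 53 F2 samples after addition of the spike-ins UniSP2 and UniSP4. Raw UMI counts, 1 table per cohort, were deposited by the authors, who had mapped reads to GRCm38, named miRNAs after miRBase and resolved the barcodes. Bowtie2 and FastQC are named in the submitters' processing notes. C3H columns were assigned by the mouse number in the labels. F2 columns carry names that match no label, so they were used as 53 libraries of the F2 cohort without mouse or time. Library pairs of 1 C3H group were compared by chi-square over miRNAs with at least 20 UMIs in both, and the most similar pair differed by 44.9 per degree of freedom, so each library counts once.

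MiRNAs that reached 5 UMIs in 5 or more C3H mice were compared between HCC and non-HCC mice with edgeR 4.0.16 (quasi-likelihood test, spike-in library scale, Benjamini-Hochberg adjustment over all miRNAs tested, threshold 0.05) in R 4.3.3. Standard errors were obtained by dividing each log2 fold change by the root of its F statistic. Alternatives were DESeq2 1.42.0, limma 3.58.1 on the log2 scale, TMM factors, a single spike-in, a minimum of 20 UMIs or none, a block for the replicate number, other pseudocounts and each mouse left out. The comparison was tested on simulated counts. Summaries used pandas 2.3.3, numpy 2.4.6 and scipy 1.17.1.

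The named miRNAs are both arms, the 5 most alike mmu-miR-802-5p in each set of libraries and the lists of liver, pancreas, insulin and glucose, red cell, platelet and leukocyte, and muscle miRNAs. The members and lists were chosen with earlier results of these data known. Sequences are from RefSeq and gene positions from GENCODE M21, both on GRCm38, and both arms were matched by name.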

Additional observations from a re-analysis of the deposited data

Results flagged for a closer look

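In HCC mouse 8 there were 7.96 UMIs of mmu-miR-802-5p per 1000 UMIs of miR-192-5p, which stood apart from the other 7 HCC mice, of which the nearest had 5.47. The gap was 0.569 of the range of the group. Chance sets a mouse apart in about 1 of 20 such groups, and 38 groups of values were searched.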

How the results depend on the processing

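The difference between HCC and non-HCC mice kept its direction for both arms under all 22 alternatives of the fit. Its log2 fold change ranged from 3.30 to 4.49 for mmu-miR-802-5p and from 3.92 to 5.19 for mmu-miR-802-3p, lowest with TMM factors and highest without non-HCC mouse 5. The direction is a description, since the arms were selected on this comparison, and some alternatives could hardly move the values. UniSP2 makes up nearly all of the spike-in mean, and alone it gave 4.25 for mmu-miR-802-5p, as the main fit did. The difference of mean log2 levels ranged from 3.02 to 3.91 for the 5p and from 3.54 to 4.48 for the 3p arm over 17 alternatives, and that of the log2 ratio of the arms from -0.58 to -0.39 over 15. Among these, setting values of 0 to 9 UMIs could change nothing, since neither arm was at 0 in a C3H mouse. The number of miRNAs called, 109, was 44 with limma on log2 values, 215 with DESeq2 and its own size factors and 177 with DESeq2 and spike-in size factors. With 1 mouse left out it ranged from 44 to 157, and it was 65 without HCC mouse 2 and 44, 47, 47 and 53 without non-HCC mice 1, 2, 3 and 4. Of the liver list 10 were called, 3 with limma and 8 to 10 with 1 mouse left out. The causes were not tested. With the replicate number as a block 145 miRNAs were called, and the log2 fold changes of the arms were 4.12 and 4.68. The numbers do not pair the mice, since deviations of same-numbered mice had correlations from -0.13 to 0.07. In non-HCC mice 25 to 38 UMIs of the 3p arm limit the arm ratio, and in F2 libraries depth limits the 3p arm.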
